A study of Homo sapiens with 12 samples.

Results

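HCT116 cells, an established human colorectal carcinoma line, were exposed to the cytokine TNF-alpha (TNF) with or without Senexin B, an inhibitor of the Mediator kinases CDK8 and CDK19, and the comparison described here is that of TNF plus Senexin B against TNF. It used 6 of the 12 RNA-sequencing libraries of the series, 3 biological replicates in each group, chosen by their treatment labels and not by any measured value. In the TNF group, 1 hour of vehicle (0.1% DMSO) was followed by 2 hours of TNF at a dose of 10 ng/mL. In the TNF plus Senexin B group, 1 µM of inhibitor took the place of the vehicle, with the same times and TNF dose, so both groups carried the cytokine. The other 6 libraries, 3 of control cells under 0.1% DMSO and 3 of cells under 1 µM Senexin B alone, each for 3 hours, served to show what the inhibitor did without TNF. They also entered the fit, which estimated the spread among replicates over all 12 libraries. The comparison asks what blocking the Mediator kinases did to the transcripts of cells that then received an inflammatory signal.

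Mediator is the large complex that connects transcription factors bound to DNA with RNA polymerase II. CDK8 or its paralogue CDK19, with cyclin C, MED12 and MED13, forms a module that docks on Mediator and phosphorylates transcription factors and parts of the transcription machinery. TNF binds its receptors, activates the IKK kinases and releases NF-kB dimers from their inhibitor IkB-alpha, after which NF-kB enters the nucleus and switches on chemokines, adhesion molecules, survival factors and its own inhibitors. CDK8 has been described as a cofactor both of NF-kB and of serum-induced genes, so chemokine genes and immediate early genes are the groups most often looked at with such inhibitors.

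Totals in the 6 libraries ran from 5835226 counts in TNF replicate 1 to 8787674 in TNF plus Senexin B replicate 3. Levels are given in CPM, counts scaled by normalized library size. TNF replicate 1 stood apart from its group. The chi-square per degree of freedom between its counts and those of TNF replicates 2 and 3 was 2.74 and 2.46, against 1.24 between replicates 2 and 3 and 1.23 to 1.73 among the TNF plus Senexin B libraries. Across genes, its deviation from the group leaned towards transcripts of low GC content (Spearman's rho = -0.668, a description over genes that share a library). Results are therefore also given without this library. No pair of libraries agreed within sampling noise. Of 20 colon and epithelial markers 13 passed the filter on low counts, with EPCAM at 2239 to 3102 counts and CDX2 at 84 to 164 counts per library. KRT20 had 2 to 9 counts, LGALS4 and GPA33 had 0 to 2, and VIL1, CDX1, CEACAM5 and CEACAM6 were at 0 in all 6. Of 15 fibroblast and endothelial markers, DCN, LUM, PDGFRA and THY1 were at 0, while COL1A1, a collagen gene, had 43 to 90 counts and was the 1 that passed the filter on low counts, and of 16 blood cell markers none passed it. The labels call the samples biological triplicates without saying what was separate, so the p-values cover the spread among these libraries, which may be partly technical.

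Senexin B changed many transcripts of TNF-treated cells by small amounts and a few by large ones. EGR1 and JUN, which encode transcription factors, and the chemokine genes CXCL8, CXCL1 and CXCL2 fell, as did heat shock genes led by HSPA1B and DNAJB1 and the cell cycle inhibitor CDKN1A. Some genes of BMP, Wnt and Notch signalling, among them ID1, BMP4, RNF43 and JAG1, rose, together with MYC, SRF and some genes of sterol synthesis. Most tested members of these pathway lists were not called. Of 13084 tested genes, 713 (5.45%) passed an adjusted p of 0.05 in edgeR's quasi-likelihood test (Benjamini-Hochberg). Of these, 380 were higher (2.9%) and 333 lower (2.55%) with the inhibitor. The median log2 fold change was 0.26 among the higher and -0.25 among the lower genes, beside 0.00077 over all tested genes. At least 1.5-fold changes were found in 28 higher and 29 lower genes, and at least 2-fold changes in 5 and 9. The libraries of both groups did not overlap in 695 of the 713 genes, whereas 22.6% of all tested genes showed no overlap.

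Detection depended on level. Where the mean was 100 CPM or more, 12.3% of genes were called, at a median change of 1.14-fold. In the range from 1 to 5 CPM 0.709% were called, at a median of 1.94-fold. From 20 to 100 CPM 6.21% were called. A small change in a low transcript was thus not detectable here, and a gene left uncalled is not shown to be unchanged. Counts of called list members below stand beside these shares, and beside 2.9% higher and 2.55% lower over all tested genes. In bulk RNA, fewer cells making a transcript and less of it per cell cannot be told apart. Without TNF replicate 1, 463 genes were called (3.49% of 13264 tested), 242 higher and 221 lower, and 412 of the 713 were among them. With offsets corrected for GC content, 598 were called (4.57%), 349 higher and 249 lower, with 433 of the 713.

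**Figure D1:**
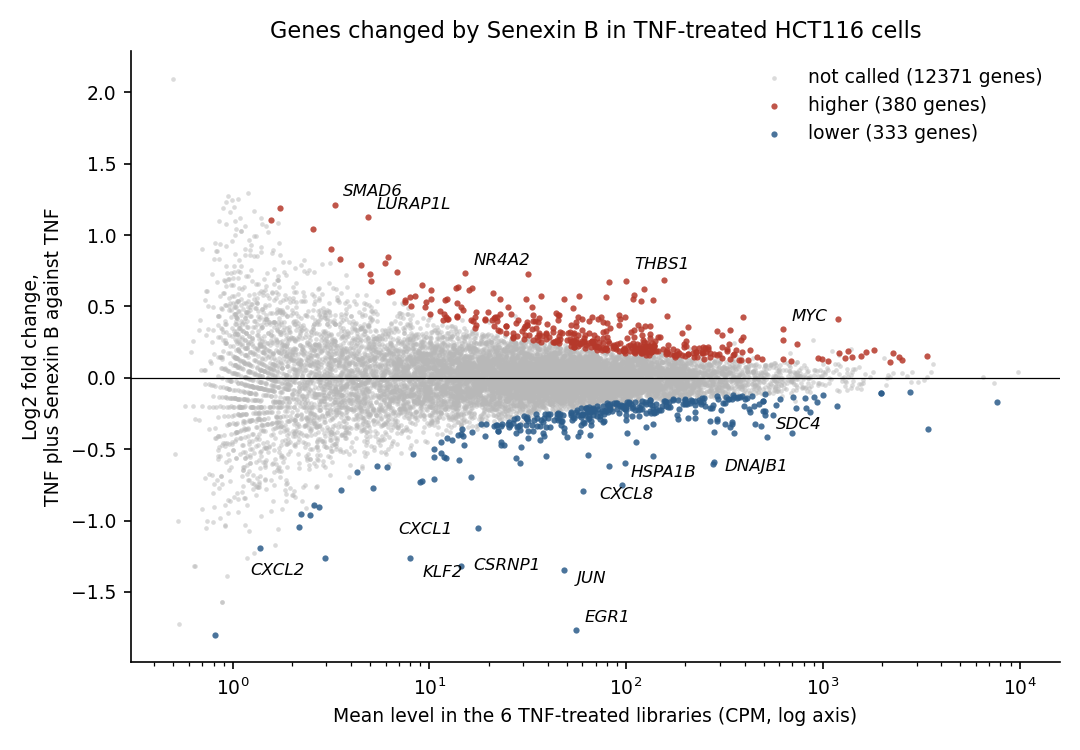
Log2 fold change of TNF plus Senexin B against TNF (vertical axis) for all 13084 tested genes against their mean level in the 6 TNF-treated libraries (horizontal axis, CPM, log scale). Red and blue points are the 380 higher and 333 lower genes at an adjusted p of 0.05. The lower side reaches further at middle levels, where EGR1 is at -1.77 and JUN at -1.35, whereas most called genes at high levels changed little.

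Immediate early genes are transcribed within minutes of a signal without new protein synthesis, and EGR1 and JUN are among the best known. EGR1, a zinc finger transcription factor (chromosome 5, 138465490 to 138469315, GENCODE 29 on GRCh38), stood at 79.9, 97.6 and 80.4 CPM with TNF and 23.9, 30.0 and 22.2 CPM with TNF plus Senexin B, the values being those of replicates 1, 2 and 3 here and below. The groups were far apart, and the fold change was the largest decrease among the genes named here, at -1.77 ± 0.11 on the log2 scale (± SE, n = 3 per group, adjusted p = 6.4e-11). JUN, a subunit of the AP-1 factor (chromosome 1, 58780788 to 58784327), stood at 66.1, 72.7 and 70.5 CPM with TNF and 27.1, 26.3 and 29.1 CPM with TNF plus Senexin B. Its libraries were tight within each group, and the change was -1.35 ± 0.08 (adjusted p = 9.37e-21). CSRNP1, a nuclear protein that responds to axin and TGF-beta signals, was at 20.5, 20.7 and 21.0 CPM with TNF and 8.32, 8.94 and 7.72 CPM with TNF plus Senexin B, a change of -1.32 ± 0.13 (adjusted p = 2.78e-12). KLF2, a zinc finger factor of the vascular endothelium, was at 8.15, 12.5 and 12.9 CPM with TNF and 5.67, 4.12 and 4.61 CPM with TNF plus Senexin B. TNF replicate 1 was the lowest of its group for KLF2 but still above all 3 inhibitor libraries, and the change was -1.26 ± 0.17 (adjusted p = 1.8e-07).

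The immediate early list did not move one way. Its 47 tested members gave 11 that fell and 12 that rose, while 24 did not pass, at a median of 0.02, which was -0.04 without TNF replicate 1 and -0.05 with GC-corrected offsets. Among those that rose, TRIB1, a pseudokinase that acts as a scaffold for ubiquitin ligases, went from 337, 336 and 328 CPM to 443, 448 and 455 CPM (0.43 ± 0.04, adjusted p = 1.19e-12). NR4A2, an orphan nuclear receptor, went from 13.9, 10.9 and 10.0 to 19.4, 16.7 and 20.6 CPM (0.73 ± 0.13, adjusted p = 5.9e-05), with no overlap between the groups. MYC, the growth-promoting transcription factor, was at 532, 586 and 550.2 CPM with TNF and 701, 711 and 705 CPM with TNF plus Senexin B, a change of 0.34 ± 0.04 (adjusted p = 3.99e-10). DUSP4, a phosphatase that switches off MAP kinases, rose by 0.43 ± 0.05 on the log2 scale (adjusted p = 4.5e-10), and in the list of ERK feedback and target genes 4 of 21 members rose and 1 fell. FOS, the AP-1 partner of JUN, was low in all libraries, at 3.81, 3.80 and 3.91 CPM with TNF and 2.41, 1.88 and 3.34 CPM with TNF plus Senexin B. The inhibitor libraries were the lower ones, but the change of -0.59 ± 0.24 did not pass (adjusted p = 0.151).

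Chemokines attract leukocytes, and those of the CXCL1, CXCL2 and CXCL8 group recruit neutrophils. CXCL8, which encodes interleukin 8 (chromosome 4, 73740506 to 73743716), stood at 85.5, 72.8 and 72.0 CPM with TNF and 42.1, 46.1 and 43.7 CPM with TNF plus Senexin B. All 3 inhibitor libraries lay well below all 3 TNF libraries, and the change was -0.79 ± 0.07 (adjusted p = 1.86e-12), a 1.73-fold decrease. CXCL1 (chromosome 4, 73869393 to 73871242) was at 26.9, 23.2 and 21.4 CPM with TNF and 10.6, 12.6 and 10.8 CPM with TNF plus Senexin B, with a change of -1.05 ± 0.12 (adjusted p = 1.61e-09). CXCL2 (chromosome 4, 74097035 to 74099293) was at 4.51, 4.29 and 3.79 CPM with TNF and 1.33, 1.76 and 2.08 CPM with TNF plus Senexin B and changed by -1.26 ± 0.29 (adjusted p = 0.00196). The decrease was not shared by every chemokine: CCL20, which attracts lymphocytes and dendritic cells, was at 5.55, 5.40 and 5.13 CPM with TNF and 5.42, 5.41 and 5.88 CPM with TNF plus Senexin B, a change of 0.06 ± 0.19 (adjusted p = 0.906). CXCL3, a close relative of CXCL1 and CXCL2, was at 3.12, 3.56 and 2.69 CPM with TNF and 1.93, 2.70 and 2.08 CPM with TNF plus Senexin B, which overlapped at -0.48 ± 0.27 (adjusted p = 0.349). CXCL1, CXCL2 and CXCL3 are close copies whose common reads the counting may have lost or shared out, so their separate values are uncertain. Of 11 tested chemokine and cytokine genes, 3 fell, 2 rose and 6 did not pass, with a median of -0.30. The rises were small: LIF, a cytokine of the interleukin 6 family, was at 0.19 ± 0.05 (adjusted p = 0.021), and was not called without TNF replicate 1 (adjusted p = 0.125), TNF replicate 3 (adjusted p = 0.104) or TNF plus Senexin B replicate 2 (adjusted p = 0.153).

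The windows before the start sites of the 3 falling chemokine genes hold matches to the NF-kB motif. They are shown with 4 others because the share of TNF-induced genes with such a match is given below for lower, higher and uncalled genes. Each line gives bases upstream of the RefSeq start site (GRCh38.p14), read 5′ to 3′ on the gene's strand, with matches to the kB motif GGNNTTTCC on either strand in capitals. Bases inside annotated exons are left out, and where a match itself lies in an exon of another transcript, the site is given with 10 bases on either side.
CXCL8 (chr4:73740453-73740505, plus strand): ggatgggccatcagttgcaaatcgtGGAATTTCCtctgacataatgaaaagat
CXCL1 (chr4:73869290-73869392, plus strand): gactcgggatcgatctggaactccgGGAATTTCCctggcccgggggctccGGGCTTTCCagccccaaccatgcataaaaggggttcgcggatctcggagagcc
CXCL2 (chr4:74099254-74099282, minus strand): tggagctccgGGAATTTCCctggcccggg
ICAM1 (chr19:10270924-10270952, plus strand): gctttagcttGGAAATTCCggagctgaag
SDC4 (chr20:45348425-45348599, minus strand): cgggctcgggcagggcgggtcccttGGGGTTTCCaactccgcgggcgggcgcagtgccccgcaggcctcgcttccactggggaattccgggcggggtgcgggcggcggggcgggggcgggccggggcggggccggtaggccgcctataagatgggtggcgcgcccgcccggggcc
CCL20 (chr2:227813738-227813821, plus strand): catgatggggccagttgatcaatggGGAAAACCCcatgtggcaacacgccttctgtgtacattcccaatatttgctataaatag
ELF3 (chr1:202010489-202010517, plus strand): ctaaaggccaGGAAATCCCctccatccaa
CXCL8, CXCL1 and CXCL2 hold the same 9 letters at 91, 78 and 77 bases before the start, and CXCL1 and CXCL2 each hold a second match 53 bases before it. CCL20, which was not called, holds a match at 79 bases, and so does ELF3, an epithelial ETS factor, at 88 bases. ELF3 rose by a small amount (0.17 ± 0.05, adjusted p = 0.0497) and kept its call in 2 of the 6 fits that left out a library, with an adjusted p of 0.194 without TNF replicate 1. A match is a description of letters and not of binding.

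Genes that TNF itself induces were taken as a set of 99, called and at least 2-fold higher for the mean TNF effect, the average of TNF against control and of TNF plus Senexin B against Senexin B. That mean weights both TNF groups equally, but the set shares libraries with the comparison described here. Of the 99, 16 were lower with the inhibitor, 12 were higher and 71 did not pass, with a median of -0.045. The 16 lower genes were JUN, CXCL2, CXCL1, CXCL8, NFKBIZ, BIRC3, CD83, TNFRSF9, ICAM1, SDC4, TNFAIP2, IRF1, PLAU, OPTN, TNFAIP3 and NFKBIA. The 12 higher genes were LURAP1L, TNFSF18, EDN1, ITGB8, NUAK2, DUSP5, PDGFB, HIVEP2, SBNO2, ANKRD33B, BIRC2 and ELF3. The higher genes were the less firm ones. Only LURAP1L, TNFSF18, ITGB8 and DUSP5 of them kept their call in every fit that left out 1 of the 6 libraries. Of the lower genes, all but OPTN and TNFAIP3 did. With GC-corrected offsets SBNO2 and ELF3 were not called (edgeR, adjusted p = 0.375 and adjusted p = 0.14). Of the 13 genes that TNF lowered at least 2-fold none was called, at a median of -0.09 (edgeR's test at an adjusted p of 0.05).

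A kB match within 250 bases upstream was found for 12 of the 16 lower TNF-induced genes (75.0%), 1 of 10 higher ones (10.0%) and 12 of 50 uncalled ones (24.0%) that had a promoter in the RefSeq table. The share was 32.9% over all 76 TNF-induced genes with a promoter, 5.91% over 9463 tested genes and 5.48% over all 27305 promoters. JUN, CD83, IRF1 and PLAU were lower without a match to GGNNTTTCC in that window. Other forms of NF-kB site were not searched, so a gene without a match is not shown to lack a site. For the AP-1 motif TGANTCA the shares were 12.5% of the lower, 14.0% of the uncalled and 0 of 10 higher TNF-induced genes, beside 3.72% over tested genes and 6.6% over all promoters. Of 1497 promoters with a kB match, 8 had a match that overlapped one of the other motifs searched. These are counts of letters in a fixed window, with no test.

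**Figure D2:**
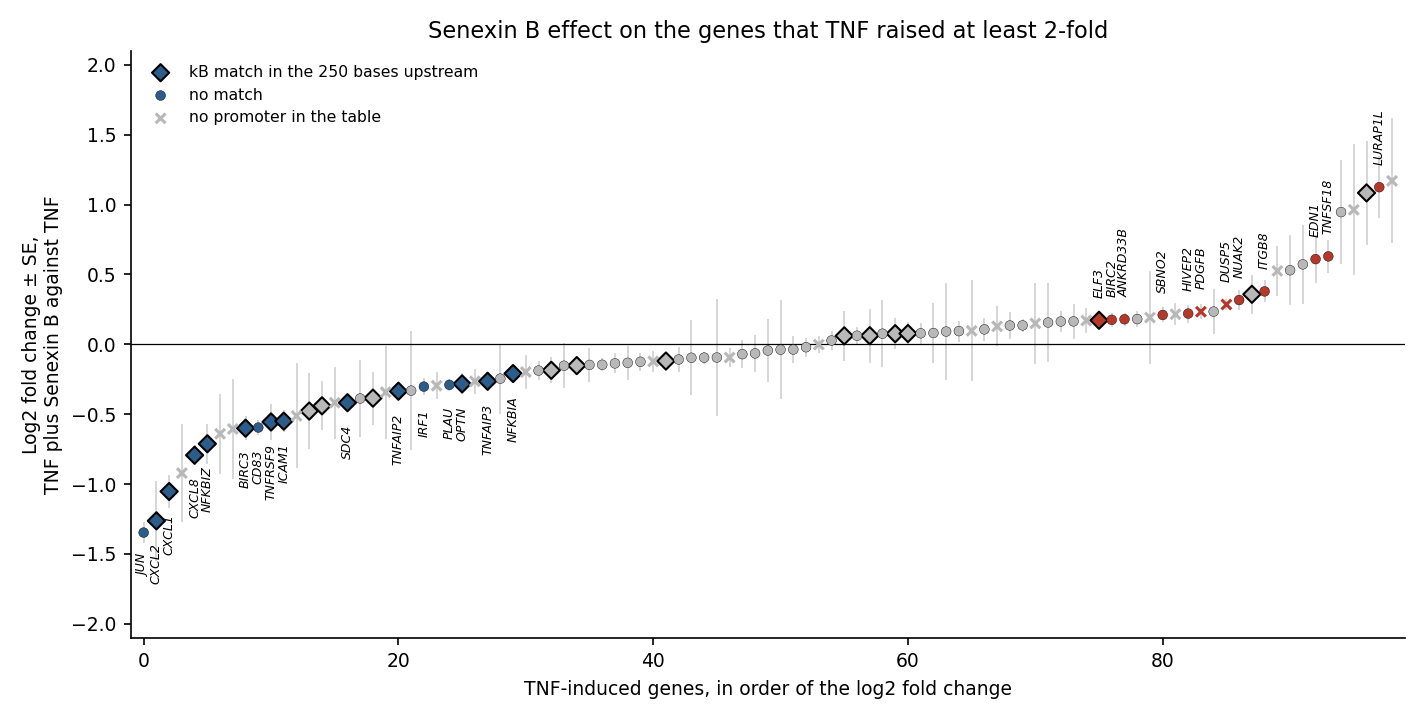
Log2 fold change of TNF plus Senexin B against TNF, with its standard error, for the 99 TNF-induced genes in order of that change. Blue and red mark the 16 lower and 12 higher genes, grey the 71 uncalled, and diamonds the genes with a kB match in the 250 bases upstream. Diamonds make up 12 of the 16 blue points, among them CXCL8 and ICAM1, and 1 of the red points, ELF3.

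Feedback inhibitors and subunits of NF-kB fell modestly or did not pass. Among 18 tested genes of this kind, 4 fell and 0 rose, while 14 did not pass, at a median of -0.11. NFKBIZ, an atypical IkB protein that acts as a nuclear cofactor, was at 14.9, 12.0 and 12.7 CPM with TNF and 6.99, 8.00 and 8.88 CPM with TNF plus Senexin B and changed by -0.71 ± 0.14 (adjusted p = 0.000456). NFKBIA, which encodes IkB-alpha, was at 289, 298 and 297 CPM with TNF and 252, 253 and 259.8 CPM with TNF plus Senexin B. The groups did not overlap, but the fold was small, at -0.21 ± 0.04 (adjusted p = 0.000628). CYLD, a deubiquitinase that restrains the pathway, changed by -0.41 ± 0.09 (adjusted p = 0.00119). TNFAIP3, which encodes the ubiquitin-editing protein A20, changed by -0.26 ± 0.07 (adjusted p = 0.00945) and was not called without TNF replicate 2 (adjusted p = 0.115) or TNF plus Senexin B replicate 3 (adjusted p = 0.0754). The subunit gene NFKB1 was at -0.12 ± 0.05 (adjusted p = 0.162). Of 24 genes of TNF receptor signalling, the ubiquitin ligase component RBCK1 was the 1 called, at 0.22 ± 0.07 (adjusted p = 0.0372). It lost the call when any 1 of the 6 libraries other than TNF replicate 2 was left out, at an adjusted p of 0.0583 without TNF plus Senexin B replicate 3 to 0.186 without TNF replicate 1.

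Other NF-kB target genes divided. Of 33 tested, 8 fell, 4 rose and 21 did not pass, with a median of -0.10. ICAM1, the adhesion molecule that binds leukocyte integrins, was at 43.7, 51.9 and 44.5 CPM with TNF and 31.5, 32.2 and 32.4 CPM with TNF plus Senexin B (-0.55 ± 0.08, adjusted p = 9.05e-07). CD83, a surface protein of activated dendritic cells, was at 120.0, 116 and 119 CPM with TNF and 81.5, 78.8 and 74.7 CPM with TNF plus Senexin B, with all inhibitor libraries lower (-0.60 ± 0.06, adjusted p = 4.47e-12). BIRC3, an inhibitor of apoptosis, was at 376, 325 and 299.6 CPM with TNF and 227, 222 and 207 CPM with TNF plus Senexin B. All inhibitor libraries lay below the TNF libraries, and the change was -0.60 ± 0.09 (adjusted p = 0.00213). TNFAIP2 changed by -0.34 ± 0.04 (adjusted p = 4.79e-09), and the stress gene IER3, which limits cell death, by -0.32 ± 0.05 (adjusted p = 4.31e-06). Without TNF replicate 1 the counts for this list were 8 lower and 1 higher.

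SRF, serum response factor, is the transcription factor through which growth signals reach EGR1 and through which actin dynamics reach cytoskeletal genes. Its own gene rose, from 88.1, 105 and 96.7 to 141, 138 and 145 CPM (0.54 ± 0.05, adjusted p = 2.21e-11). In the list of YAP/TEAD and SRF target genes, 7 of 25 rose, 0 fell and 18 did not pass, with a median of 0.16. THBS1, the matrix glycoprotein thrombospondin 1, was at 76.1, 81.0 and 74.4 CPM with TNF and 117, 123 and 130.1 CPM with TNF plus Senexin B (0.68 ± 0.06, adjusted p = 1.35e-13). The actin-binding proteins VCL (vinculin, whose gene overlaps AP3M1 on the other strand) and CNN2 (calponin 2) rose by 0.34 ± 0.04 and 0.35 ± 0.05 on the log2 scale (adjusted p = 5.05e-09 and adjusted p = 7.68e-08). For these genes the inhibitor libraries all lay above the TNF libraries, the opposite order to EGR1. The CArG box, the binding motif of SRF, was found within 250 bases upstream in 8 of 279 higher genes with a promoter (2.87%), 5 of 264 lower genes (1.89%) and 1.14% of all promoters. The 3 promoters below show that genes with this motif moved in both directions. Capitals mark CArG boxes, and the bases are those upstream of the RefSeq start site.
EGR1, lower (chr5:138465349-138465478, plus strand): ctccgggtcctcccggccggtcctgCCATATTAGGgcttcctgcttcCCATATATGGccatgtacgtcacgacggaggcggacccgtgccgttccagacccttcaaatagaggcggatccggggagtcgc
SRF, higher (chr6:43171214-43171268, plus strand): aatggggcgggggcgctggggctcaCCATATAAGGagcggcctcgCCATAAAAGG
CNN2, higher (chr19:1026494-1026580, plus strand): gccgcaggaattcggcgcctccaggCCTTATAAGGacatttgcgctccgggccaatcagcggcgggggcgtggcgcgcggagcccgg

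Heat shock proteins are chaperones that refold damaged proteins, and DNAJ proteins are their partners. The 23 tested genes of this list gave 9 that fell and 1 that rose, while 13 did not pass, at a median of -0.12. HSPA1B, a stress-inducible HSP70 gene (chromosome 6, 31827735 to 31830255), was at 124, 118 and 116 CPM with TNF and 76.5, 68.5 and 67.6 CPM with TNF plus Senexin B, without overlap (-0.75 ± 0.06, adjusted p = 2.94e-15). HSPA1A has nearly the same sequence, so that reads could count for either gene. It was listed at 2.95, 2.70 and 3.05 CPM with TNF, and the separate values of the pair are uncertain. DNAJB1, the main HSP40 partner of HSP70 (chromosome 19, 14514770 to 14529770), was at 337, 336 and 337 CPM with TNF and 222, 221 and 227 CPM with TNF plus Senexin B, with nearly equal values within each group (-0.59 ± 0.04, adjusted p = 4.98e-17). DNAJB1 overlaps TECR on the other strand, which had fewer counts and stood at 0.015, so its value is also uncertain. The constitutive chaperone HSPA8 changed by -0.36 ± 0.03 (adjusted p = 1.86e-13) and the co-chaperone DNAJA1 by -0.32 ± 0.04 (adjusted p = 3.4e-08). Without TNF replicate 1 the counts were 8 lower and 2 higher, and with GC-corrected offsets 7 and 1.

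BMP, Wnt and Notch ligands pattern the intestinal epithelium, and their targets were mostly higher where they were called. TGF-beta and BMP targets numbered 16 among tested genes, and 6 of them rose, 1 fell and 9 did not pass, at a median of 0.20. ID1, an inhibitor of differentiation factors and a direct BMP target, was at 61.0, 64.5 and 63.0 CPM with TNF and 106, 98.7 and 96.7 CPM with TNF plus Senexin B (0.67 ± 0.06, adjusted p = 1.7e-13). BMP4, the ligand itself, was at 89.7, 84.5 and 90.5 CPM with TNF and 136, 128 and 131 CPM with TNF plus Senexin B (0.58 ± 0.05, adjusted p = 4.83e-13), and ID3 changed by 0.49 ± 0.08 (adjusted p = 4.82e-05). SMAD6, an inhibitor of BMP signalling, was low, at 1.73, 2.45 and 1.71 CPM with TNF and 6.27, 4.12 and 3.57 CPM with TNF plus Senexin B. It had the largest increase among the genes named by rank, 1.21 ± 0.28 (adjusted p = 0.00161), but was not called without TNF plus Senexin B replicate 1 (adjusted p = 0.0524).

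The Wnt/beta-catenin list had 19 tested genes, and 5 of them rose, 0 fell and 14 did not pass, at a median of 0.09. RNF43, a ubiquitin ligase that removes Wnt receptors from the surface, was at 49.8, 44.9 and 45.2 CPM with TNF and 72.6, 69.1 and 65.1 CPM with TNF plus Senexin B, without overlap (0.57 ± 0.07, adjusted p = 4.56e-09). It overlaps SUPT4H1, which had more counts and changed by 0.04, so its value is uncertain. TCF7L2, the factor that partners with beta-catenin in the gut, changed by 0.24 ± 0.05 (adjusted p = 0.000863). Of 12 Notch pathway genes 2 rose and 0 fell, at a median of 0.05 that was -0.04 with GC-corrected offsets. They were the ligand JAG1, at 96.9, 97.6 and 97.8 CPM with TNF and 158, 148 and 145 CPM with TNF plus Senexin B (0.62 ± 0.05, adjusted p = 1.35e-13), and HES4, a target gene, at 0.49 ± 0.11 (adjusted p = 0.00174). MYC, JAG1, SRF and CDKN1A are each in more than 1 of the lists used here, so the lists are not separate evidence.

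**Figure D3:**
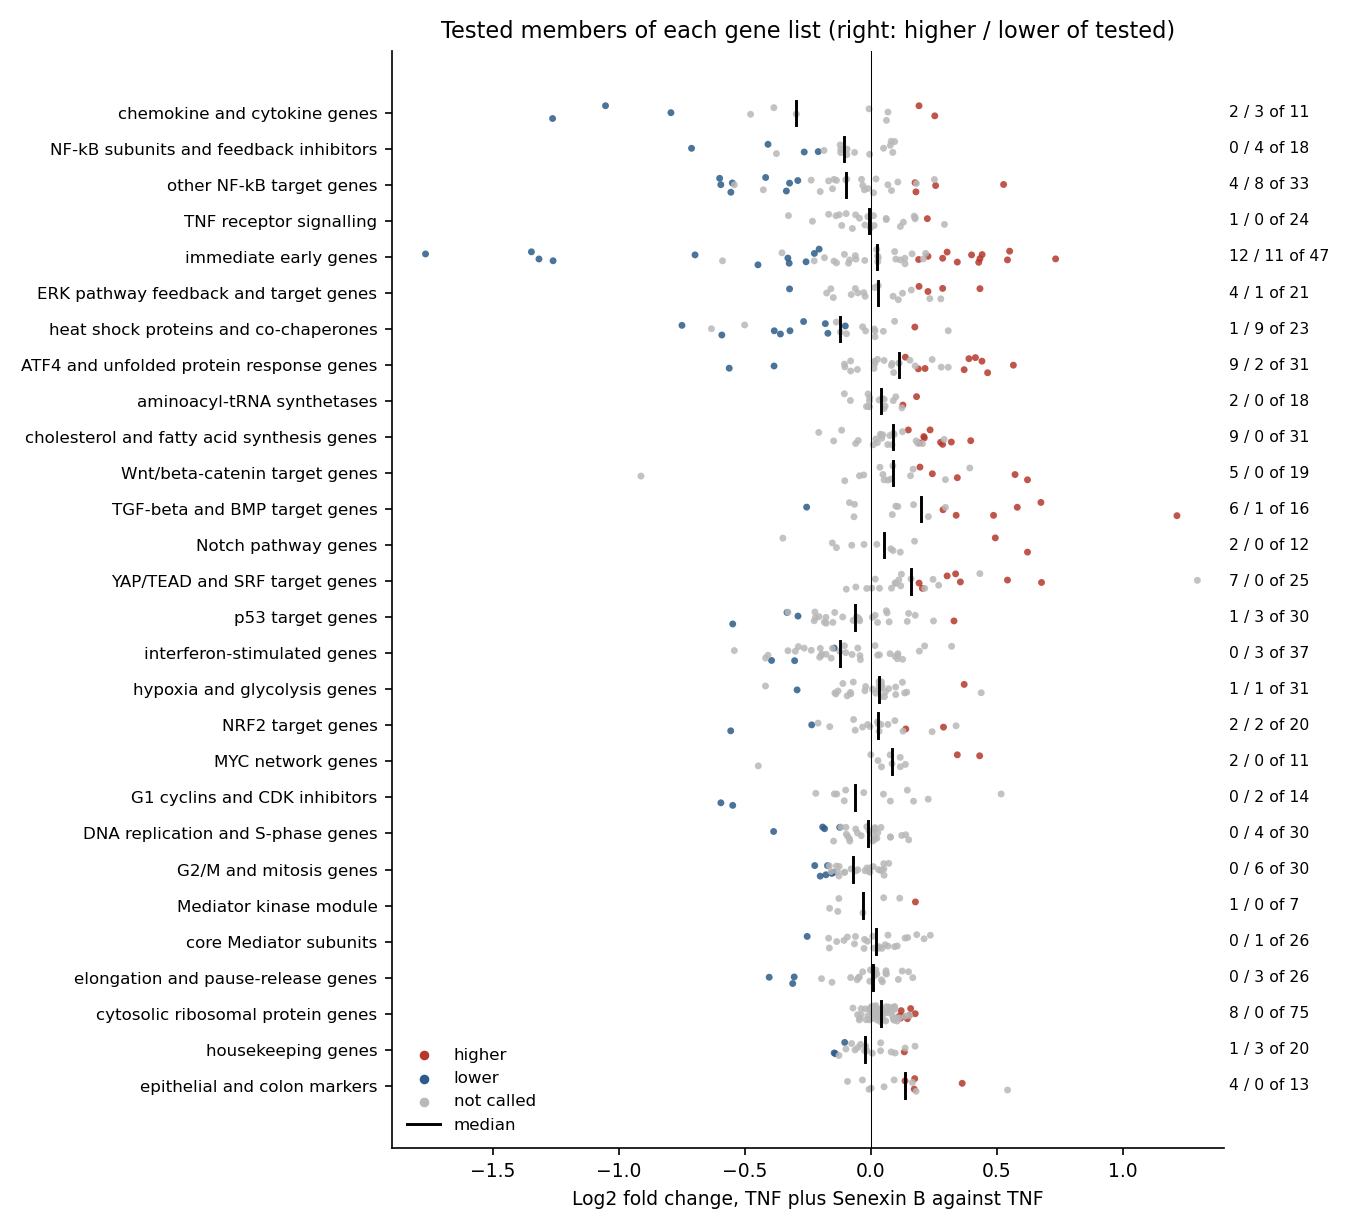
Log2 fold change of TNF plus Senexin B against TNF for the tested members of 28 gene lists, 1 point per gene, with the median as a black bar. Red and blue points are higher and lower genes at an adjusted p of 0.05, grey points are uncalled, and the counts at the right give higher and lower of tested. Heat shock genes lean to the left, with 9 lower of 23, YAP/TEAD and SRF targets to the right, with 7 higher of 25, and immediate early genes spread both ways.

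ATF4 is the transcription factor of the integrated stress response, which turns on amino acid transport and synthesis, and XBP1 acts in the unfolded protein response of the endoplasmic reticulum. Both responses together had 31 tested genes, and 9 of them rose, 2 fell and 20 did not pass, at a median of 0.11. TRIB3, a pseudokinase induced by ATF4, was at 61.0, 63.2 and 67.4 CPM with TNF and 97.0, 96.4 and 91.1 CPM with TNF plus Senexin B (0.56 ± 0.06, adjusted p = 8.48e-11), and XBP1 changed by 0.41 ± 0.06 (adjusted p = 4.5e-07). DDIT4, an inhibitor of mTORC1, changed by 0.44 ± 0.09 (adjusted p = 0.000579). The amino acid transporter SLC7A1 changed by 0.21 ± 0.04 (adjusted p = 0.000215). Of 18 aminoacyl-tRNA synthetase genes 2 rose, led by VARS, which charges tRNA with valine, at 0.18 ± 0.04 (adjusted p = 0.00233). With GC-corrected offsets VARS was not called (adjusted p = 0.115).

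Sterol and fatty acid synthesis genes, which the SREBP factors control, rose in 9 of 31 cases and fell in 0, with a median of 0.09. SQLE, an enzyme of cholesterol synthesis, was at 121, 115 and 121 CPM with TNF and 142, 140.3 and 150.4 CPM with TNF plus Senexin B, without overlap (0.28 ± 0.05, adjusted p = 0.000121). DHCR7, which acts later in the same pathway, changed by 0.28 ± 0.05 (adjusted p = 5.89e-05), and SCD, which desaturates fatty acids, by 0.19 ± 0.03 (adjusted p = 7.35e-06). All 3 of these kept their call in every fit that left out 1 of the 6 libraries.

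CDKN1A encodes p21, a cell cycle inhibitor and a classic p53 target. It stood at 158, 166 and 165 CPM with TNF and 116, 112 and 108 CPM with TNF plus Senexin B, with all inhibitor libraries lower (-0.55 ± 0.05, adjusted p = 6.11e-13). MDM2, the ubiquitin ligase of p53, overlaps a gene with far fewer counts and changed by -0.29 ± 0.04 (adjusted p = 5.31e-06), whereas the polo-like kinase PLK2 changed by 0.33 ± 0.04 (adjusted p = 5.05e-08). The p53 list had 30 tested genes, and 3 of them fell, 1 rose and 26 did not pass, at a median of -0.06. CCNE2, cyclin E2, changed by -0.60 ± 0.09 (adjusted p = 1.46e-06). It overlaps INTS8 and NDUFAF6 on the other strand, whose reads could not be told apart from its own in a library that does not mark strand. Of 30 DNA replication genes 4 fell and 0 rose, led by RRM2, a subunit of ribonucleotide reductase, at -0.39 ± 0.04 (adjusted p = 9.91e-12). Of 30 genes of G2 and mitosis 6 fell and 0 rose, at a median of -0.07. Over all tested genes 2.55% fell. Without TNF replicate 1 the counts for DNA replication and for G2 and mitosis were 2 and 3 lower, and with GC-corrected offsets 3 and 2. In all fits that left out 1 of the 6 libraries, 2 and 1 of the called members kept their call.

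The kinases targeted by the inhibitor gave no call at the transcript level. CDK8 was at 53.1, 46.0 and 42.6 CPM with TNF and 41.0, 44.7 and 42.8 CPM with TNF plus Senexin B (-0.13 ± 0.08, adjusted p = 0.371) and CDK19 at 21.7, 21.5 and 21.1 CPM with TNF and 23.9, 23.2 and 22.5 CPM with TNF plus Senexin B (0.11 ± 0.10, adjusted p = 0.574). The cyclin C gene CCNC was at -0.16 ± 0.06 (adjusted p = 0.0895), MED12 at 0.05 ± 0.09 (adjusted p = 0.812) and MED13 at -0.13 ± 0.04 (adjusted p = 0.065). Of the 7 genes of the kinase module, MED13L was called, at 0.18 ± 0.05 (adjusted p = 0.0371), but in 1 of the 6 fits that left out a library, with an adjusted p of 0.286 without TNF replicate 1. An inhibitor of kinase activity need not change these transcripts, so they do not check the labels. Of 26 elongation and pause-release genes, 3 fell and 0 rose. HEXIM1, an inhibitor of the elongation kinase P-TEFb, was at 70.6, 76.8 and 75.7 CPM with TNF and 55.7, 57.3 and 56.3 CPM with TNF plus Senexin B (-0.40 ± 0.06, adjusted p = 2.54e-06). MEPCE, which caps the 7SK RNA that holds HEXIM1, changed by -0.30 ± 0.06 (adjusted p = 0.000759), and the bromodomain protein gene BRD2, which overlaps HLA-DMA, by -0.31 ± 0.04 (adjusted p = 6.51e-08).

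Other lists had few calls. Of 37 interferon-stimulated genes, 3 fell and 0 rose, among them the transcription factor IRF1 at -0.30 ± 0.06 (adjusted p = 0.000927), and without TNF replicate 1 the count was 1. Hypoxia and glycolysis genes had 1 higher and 1 lower of 31. NRF2 targets had 2 and 2 of 20, with OSGIN1, an oxidative stress gene, at -0.56 ± 0.13 (adjusted p = 0.0049). Of 75 cytosolic ribosomal protein genes 8 rose and 0 fell, at a median of 0.04, and 2 rose without TNF replicate 1. Over all tested genes 2.9% rose, and of the 2412 at 100 CPM or more 159 rose and 138 fell. Of 20 housekeeping genes, 1 rose and 3 fell. Of 13 tested epithelial and colon markers, 4 rose and 0 fell. Without TNF replicate 1, 2 rose, and with GC-corrected offsets 2 rose. The summed epithelial markers were 4330 to 4780 CPM with TNF and 4960 to 5030 CPM with TNF plus Senexin B. KRT8, a keratin of simple epithelia, took the largest share and changed by 0.17 ± 0.03 (adjusted p = 0.000866), and it overlaps KRT18 on the other strand. Summed fibroblast and endothelial markers were 8.91 to 13.1 and 9.64 to 10.8 CPM, and summed blood cell markers 1.09 to 1.37 and 0.455 to 1.67 CPM.

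Some of the genes ranked highest by fold were transcripts of few counts. Among the 15 largest decreases, PRKG2, ZSWIM3, TFEB, TTLL11, LCAT, AGER and ZNF44 lost the call in at least 2 of the 6 fits that left out a library. TFEB, a regulator of lysosome genes, shows the size of the scatter, at 2.60, 3.19 and 3.91 CPM with TNF and 1.93, 1.88 and 1.27 CPM with TNF plus Senexin B (adjusted p = 0.0394). It kept its call only without TNF replicate 1, and without TNF plus Senexin B replicate 3 its adjusted p was 0.187. TFAP2C, an AP-2 transcription factor, was at 6.59, 6.25 and 6.72 CPM with TNF and 3.50, 4.35 and 3.57 CPM with TNF plus Senexin B and kept its call in all 6 (-0.77 ± 0.20, adjusted p = 0.00774). Among the 15 largest increases, ACBD4, HOXA10-AS, EMC6, P2RX5 and ZNF524 lost the call in at least 1 such fit, as P2RX5 did without TNF plus Senexin B replicate 3 (adjusted p = 0.0783). HOXA10-AS overlaps HOXA10 and HOXA9 on the other strand, and ACBD4 overlaps the more highly counted PLCD3, so their values are uncertain. Both rises at higher counts that follow kept their call in all 6 fits. MYEOV, a gene amplified in some myelomas, was at 112, 119.6 and 126 CPM with TNF and 189, 190.1 and 197 CPM with TNF plus Senexin B (0.68 ± 0.05, adjusted p = 1.57e-15), and DHRS3, a retinal reductase, at 22.5, 22.9 and 26.4 CPM with TNF and 39.4, 42.2 and 37.9 CPM with TNF plus Senexin B (0.73 ± 0.09, adjusted p = 3.52e-09). LURAP1L, a TNF-induced gene of low level, was at 3.81, 2.21 and 3.30 CPM with TNF and 7.23, 6.11 and 6.57 CPM with TNF plus Senexin B (1.12 ± 0.22, adjusted p = 0.000267). Over the whole comparison, 260 of the 713 genes, 142 higher and 118 lower, kept their call in all 6 fits.

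Whether TNF altered what the inhibitor did was asked by setting the effect in TNF-treated cells beside Senexin B against control, which uses none of the same libraries. There 398 of 13084 genes were called (3.04%), 200 higher (1.53%) and 198 lower (1.51%). Of the 713 genes, 212 were called in the same direction in both, 123 higher and 89 lower, which is 29.7% of the genes called with TNF and 53.3% of those called without it. Without TNF replicate 1, 412 of the 713 stayed called, and the overlap was not counted in that fit. A gene called in 1 comparison only is not shown to differ between both. None was called in opposite directions by edgeR's test. Without TNF, 353 of the 380 genes that were higher and 314 of the 333 that were lower kept their sign, at a median log2 fold change there of 0.15 and -0.13. These genes were chosen by their call with TNF, so smaller medians without TNF can follow from that choice alone. The share of equal signs over all tested genes was not counted. JUN changed by -1.33 ± 0.11 without TNF and EGR1 by -1.45 ± 0.10, beside -1.35 ± 0.08 and -1.77 ± 0.11 with it, and the difference passed for neither (edgeR, adjusted p = 0.991 and adjusted p = 0.794). DNAJB1 changed by -0.63 ± 0.04 and HSPA1B by -0.87 ± 0.05 without TNF, beside -0.59 ± 0.04 and -0.75 ± 0.06 with it. CXCL8 was near 0 without TNF, at 0.135, 0.712 and 0.663 CPM in control and 0.234, 0.496 and 0.321 CPM with Senexin B, which leaves little to compare.

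**Figure D4:**
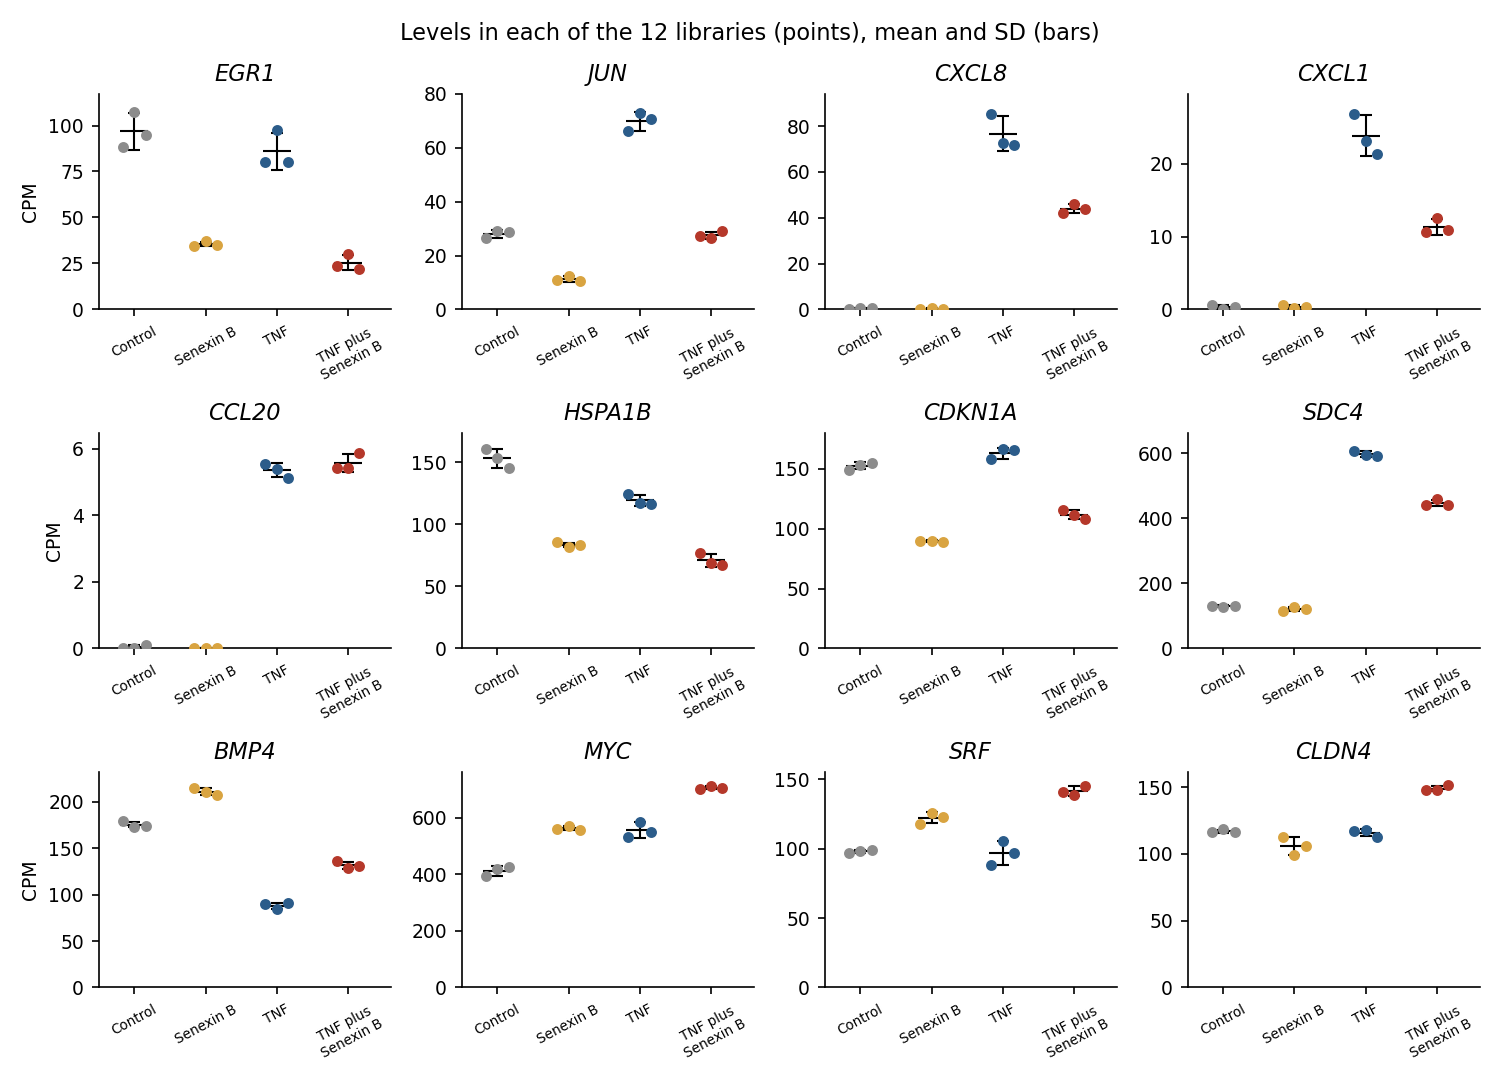
CPM of 12 genes in each of the 12 libraries (points), with the mean and SD of each group of 3 (bars). EGR1, JUN, HSPA1B and CDKN1A are lower with Senexin B both without and with TNF, CXCL8 and CXCL1 are near 0 without TNF, CCL20 is alike in both TNF groups, and CLDN4 is highest in the TNF plus Senexin B libraries, at 148 to 151 CPM.

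Lists differed in how many members were called in each setting, though differences between counts were not tested. For ATF4 and unfolded protein response genes the counts were 19 higher and 1 lower of 31 without TNF, beside 9 and 2 with it. For aminoacyl-tRNA synthetases they were 7 and 0 of 18 without TNF, beside 2 and 0. Heat shock genes had 0 higher and 7 lower without TNF, beside 1 and 9, and sterol and fatty acid genes 8 and 0, beside 9 and 0. Immediate early genes had 9 higher and 12 lower without TNF, beside 12 and 11.

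The difference between the inhibitor's effects with and without TNF was itself tested in the same fit, and 6 genes passed (0.0459%), 3 of them higher (0.0229%) and 3 lower (0.0229%) with TNF than without. At an unadjusted p of 0.05, 796 of 13084 genes did. With no difference in any gene, a share of about 0.05 would pass that threshold. DESeq2 called 4 genes at its adjusted p. CLDN4, a tight junction protein, was at 117, 118 and 113 CPM with TNF and 148, 148 and 151 CPM with TNF plus Senexin B, and at 117, 118 and 116 CPM in control and 113, 99.2 and 106 CPM with Senexin B. It rose with the inhibitor in TNF-treated cells (0.36 ± 0.05) and was at -0.14 ± 0.05 without TNF (adjusted p = 0.134), a difference of 0.50 ± 0.07 (adjusted p = 4.41e-05). SDC4, the heparan sulfate proteoglycan syndecan 4, was at 607, 594 and 590.4 CPM with TNF and 442, 459 and 440.0 CPM with TNF plus Senexin B, and at 132, 128 and 132 CPM in control and 115, 126 and 122 CPM with Senexin B. It fell by 0.42 ± 0.04 on the log2 scale in TNF-treated cells (adjusted p = 1.35e-12) and was at -0.11 ± 0.05 without TNF, a difference of -0.31 ± 0.06 (adjusted p = 0.0117).

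STC2, a secreted glycoprotein of the stress response, showed the reverse pattern. It was at 188, 203 and 200.0 CPM with TNF and 203, 197 and 197 CPM with TNF plus Senexin B, a change of 0.01 ± 0.05 (adjusted p = 0.921), while it rose by 0.43 ± 0.05 on the log2 scale without TNF (adjusted p = 3.04e-09). The difference was -0.42 ± 0.07 (adjusted p = 0.000375). ASNS, asparagine synthetase and an ATF4 target, was likewise at -0.08 ± 0.04 with TNF and at 0.24 ± 0.04 without, a difference of -0.32 ± 0.06 (adjusted p = 0.0117). BMP4 rose in both settings, at 0.27 ± 0.04 without TNF, with a difference of 0.32 ± 0.07 (adjusted p = 0.0446). IRF2BPL, an IRF2-binding protein, was at 53.9, 66.0 and 64.7 CPM with TNF and 83.3, 80.1 and 84.2 CPM with TNF plus Senexin B (0.41 ± 0.07, adjusted p = 1.04e-05) and at -0.04 ± 0.07 without TNF, a difference of 0.45 ± 0.09 (adjusted p = 0.0316). When each of the 12 libraries was left out in turn, the difference stayed called for CLDN4 and STC2 in every fit. For ASNS it was lost without any 1 of the 3 Senexin B libraries, TNF plus Senexin B replicate 1 or 3, or control replicate 1, at an adjusted p of up to 0.143. For SDC4 it was lost without Senexin B replicate 2 or 3, TNF plus Senexin B replicate 1 or 3, or control replicate 2, at up to 0.205. For IRF2BPL it was kept only without Senexin B replicate 1, TNF replicate 2 or 3, or control replicate 3, and otherwise reached 0.449. For BMP4 it was kept only without TNF replicate 1, and otherwise reached 0.348 (all edgeR adjusted p-values).

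**Figure D5:**
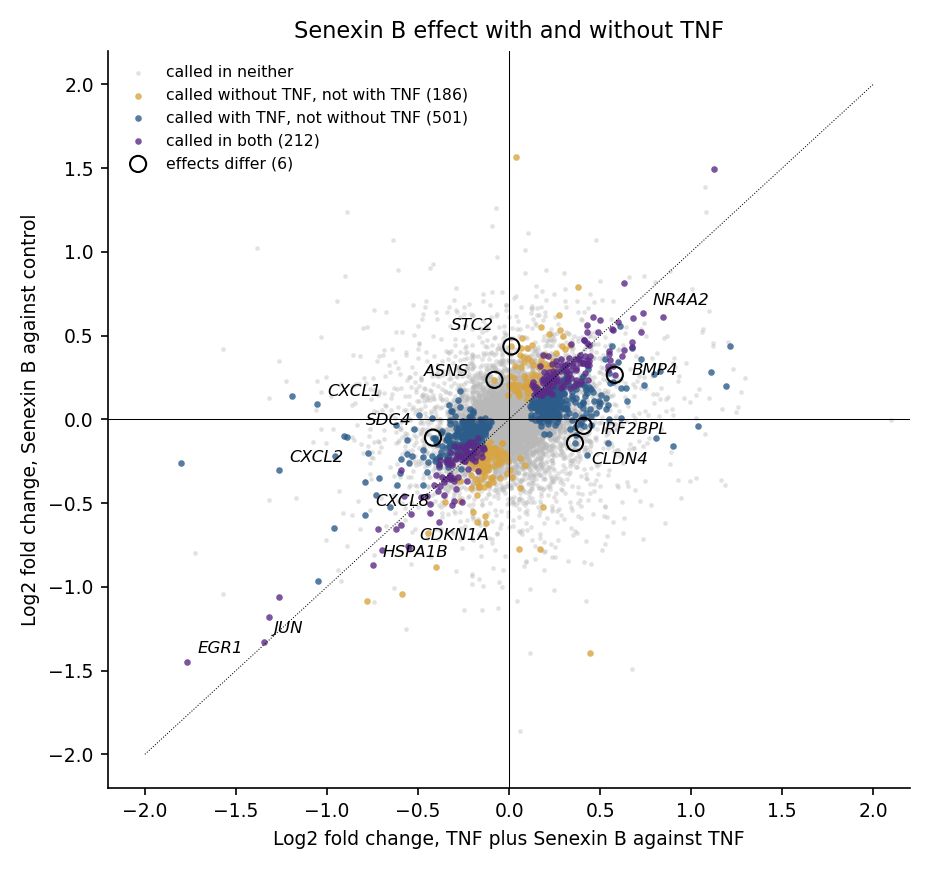
Log2 fold change with Senexin B in TNF-treated cells (horizontal axis) and without TNF (vertical axis) for the tested genes, the dotted line marking equal effects and 1 gene lying outside the axes. Purple points are the 212 genes called in both, blue the 501 called with TNF and not without, orange the 186 called without TNF and not with it, and circles the 6 genes whose effects differ. JUN lies near the line, and CLDN4 lies away from it, with a difference of 0.50 between both effects.

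GC content moved with the fold change. Spearman's rho of fold change with the GC content of the transcript was 0.37 over genes, beside 0.18 without TNF replicate 1 and 0.094 for Senexin B against control (12223 genes that share these libraries). Median GC content stood at 56.6% for the higher, 41.3% for the lower and 48.4% for all tested genes. Without TNF replicate 1 it was 50.5% and 45.5%, and with GC-corrected offsets 47.0% and 51.1%. EGR1, JUN, CSRNP1, KLF2, CXCL8, CXCL1, CXCL2, ICAM1, SDC4, HSPA1B, DNAJB1, CDKN1A, ID1, BMP4, JAG1, RNF43, SRF, THBS1, MYC, TRIB3 and CLDN4 kept their call and direction without TNF replicate 1 and with GC-corrected offsets.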

How the data were processed

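Values were counts per gene as deposited by the authors, 1 column per library. Per the submitters' processing notes, STAR 2.4, SAMtools 1.2, featureCounts of Subread 1.4.6 and the hg38 (GRCh38) genome were used. The annotation release, strand setting and treatment of multi-mapping reads are not given in the sources used here. Counts were scaled by TMM, filtered with filterByExpr and fitted with edgeR 4.0.16 in R 4.3.3, with 1 coefficient for each of the 4 groups over all 12 libraries, robust quasi-likelihood and Benjamini-Hochberg adjustment over 13084 genes of 56634. The common biological coefficient of variation was 3.62%. Genes were named by rule: the 15 largest decreases and increases among called genes with at least 1 CPM and no overlap, up to 5 each way for the difference of effects and among TNF-induced genes, up to 4 called members per list, and a fixed set. Complete sets of called TNF-induced genes and MED13L were named after their values were seen. A gene that the rule would name is not reported here. The members and lists were chosen with earlier results of these data known. On simulated data (12966 genes), 62% of genes changed 1.25-fold and 90% of those changed 2-fold were recovered, with 10 false calls of 177. The simulation did not model the GC-linked deviation of TNF replicate 1 (rho = -0.668). These figures therefore hold for the simulated counts only, and the share of false calls among the real ones was not tested. Coordinates are from GENCODE 29 and promoters from RefSeq (GRCh38.p14), matched by symbol for 9463 tested genes. Alternatives were DESeq2 1.42.0, other scalings and filters, GC-corrected offsets, a replicate block, the contrast's own 6 libraries, and each library left out in turn.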

Additional observations from a re-analysis of the deposited data

Results flagged for a closer look

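The response to Senexin B differed between cells with and without TNF for 6 genes, tested in edgeR as the difference of both effects (quasi-likelihood, Benjamini-Hochberg). On the log2 scale the effect with TNF minus that without was 0.50 ± 0.07 for CLDN4 (adjusted p = 4.41e-05), 0.45 ± 0.09 for IRF2BPL (adjusted p = 0.0316) and 0.32 ± 0.07 for BMP4 (adjusted p = 0.0446). It was -0.42 ± 0.07 for STC2 (adjusted p = 0.000375), -0.32 ± 0.06 for ASNS (adjusted p = 0.0117) and -0.31 ± 0.06 for SDC4 (adjusted p = 0.0117). The inhibitor's effect was called in TNF-treated cells and not in the others for CLDN4, IRF2BPL and SDC4, the reverse for STC2 and ASNS, and in both for BMP4. When each library was left out in turn, the difference stayed called in every fit for CLDN4 and STC2 only, and DESeq2 called 4 genes. The cause was not tested.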

How the results depend on the processing

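No named gene whose change was called reversed its direction under any alternative counted for it. For the comparison of TNF plus Senexin B with TNF, DESeq2 called 461 genes, 251 higher and 210 lower, beside 713, 380 and 333. It gave no adjusted p for 48 of the 713, and for 7 of the 28 called TNF-induced genes. A fit of only the 6 libraries of the comparison called 544 genes, 298 higher and 246 lower. Leaving out 1 library at a time gave 451 to 815 calls, 242 to 478 higher and 200 to 337 lower. The count fell by more than 1.5 times without TNF replicate 1 (463) and without TNF plus Senexin B replicate 1, 2 or 3 (461, 468 and 451). Without TNF replicates 2 and 3 it was 815 and 657. Of the 99 TNF-induced genes DESeq2 called 16, 6 higher and 10 lower, beside 28, 12 and 16, and leaving out a library gave 22 to 31, with 6 to 13 higher and 15 to 18 lower. Senexin B against control had 398 calls, 688 with the replicate block and GC-corrected offsets together, and 236 to 333 with a library left out. The difference of effects had 6 calls, 10 with every gene with a count tested, and 2 to 9 with a library left out.

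Of 111 called named genes, 71 kept the call under every alternative counted that gave a value and 40 lost it under at least 1. DESeq2 lost 13, GC-corrected offsets 21, the 6 libraries alone 12 and leaving out any 1 of the 6 libraries compared 11 to 25. Fits without single control or Senexin B libraries were run, but calls of named genes were not counted in them, apart from the 6 genes of the difference. The medians of the immediate early and Notch lists, both near 0, turned negative with GC-corrected offsets (-0.052 and -0.04), and the GC content of higher and lower genes turned from 56.6% and 41.3% to 47.0% and 51.1%. Same-numbered TNF and TNF plus Senexin B libraries showed little common deviation, at r = -0.0105, -0.0166 and 0.0669. Same-numbered pairs with control ran from -0.0447 (Senexin B replicate 1) to 0.2 (TNF plus Senexin B replicate 1). Differently numbered pairs ran from -0.204 to 0.119, so pairing by number across all groups was not settled. With the replicate block 871 genes were called and no named gene lost its call. Depth limits low transcripts, of which 0.474% were called below 1 CPM.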
